A study of Mus musculus with 4 samples.

Results

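The transcripts described here are those of 34 genes for nuclear receptors and their binding proteins, chosen by name: 28 receptors, 4 coregulators and 2 cellular retinoic acid binding proteins. All 34 were found among the 27179 gene identifiers of the count table. The libraries came from group 2 innate lymphoid cells (ILC2s), tissue lymphocytes that make type 2 cytokines, sorted from C57BL/6J mouse colon. Control diet was given to 2 mice and high-fiber diet to 2 others, and each library is 1 mouse. The labels give no genetic change, agent, age or time on the diet, nor the kind of fiber and the gates of the sort.

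Nuclear receptors are transcription factors that bind small lipophilic ligands, such as retinoids, vitamin D, thyroid hormone, oxysterols, fatty acids, bile acids and steroids. The retinoid X receptors (RXRs) are the shared partner of the retinoic acid, vitamin D, thyroid hormone, PPAR and LXR receptors, whereas steroid receptors mostly act as homodimers. Corepressors such as NCOR1 hold unliganded receptors in a repressive state, and coactivators such as NCOA2 are recruited when ligand binds.

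Library totals ran from 20253987 to 30406730 counts, and mouse 1 of each diet had the deeper library. At this depth a gene with 0 counts in a library may hold up to 3 counts, which is 0.0993 to 0.147 CPM (counts scaled per library to a common total). All 12 ILC2 markers, Gata3 and Il1rl1 among them, had counts in every library, with a summed level of 13283 to 17671 CPM. Of 10 epithelial markers 7 had 0 counts in all libraries, including Krt8, Vil1 and Cdh1, and the summed level was 25.1 to 37.3 CPM. Of 12 myeloid markers 3 had 0 counts throughout (Itgax, S100a8 and S100a9), and the sum was 143 and 294 CPM in controls and 328 and 368 CPM in fiber-fed mice. T cell markers summed to 37.0 and 42.3 CPM in controls and 9.01 and 22.5 CPM in fiber-fed mice, with 3 of 8 at 0 in all libraries (Cd8a, Cd8b1 and Cd5). B and plasma cell markers, 8 genes with none at 0 in all libraries, summed to 156 and 39.1 CPM in controls and to 343 and 1229 CPM in fiber-fed mice. The part of these other cells in the values below was not tested. In bulk RNA, a smaller share of cells with a transcript and less of it per cell cannot be told apart.

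Expression was called where a gene reached at least 1 CPM in every library. By that measure 17 of the 34 members were expressed, 10 had some counts but fell below it, and 7 had 0 counts in all libraries. Among the 28 receptors 13 were expressed, 9 were low and 6 were not detected. All 4 coregulators were expressed. Each library held counts for 23 members. The level of each detected member in each library is shown in the plot of CPM by gene.

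**Figure D1:**
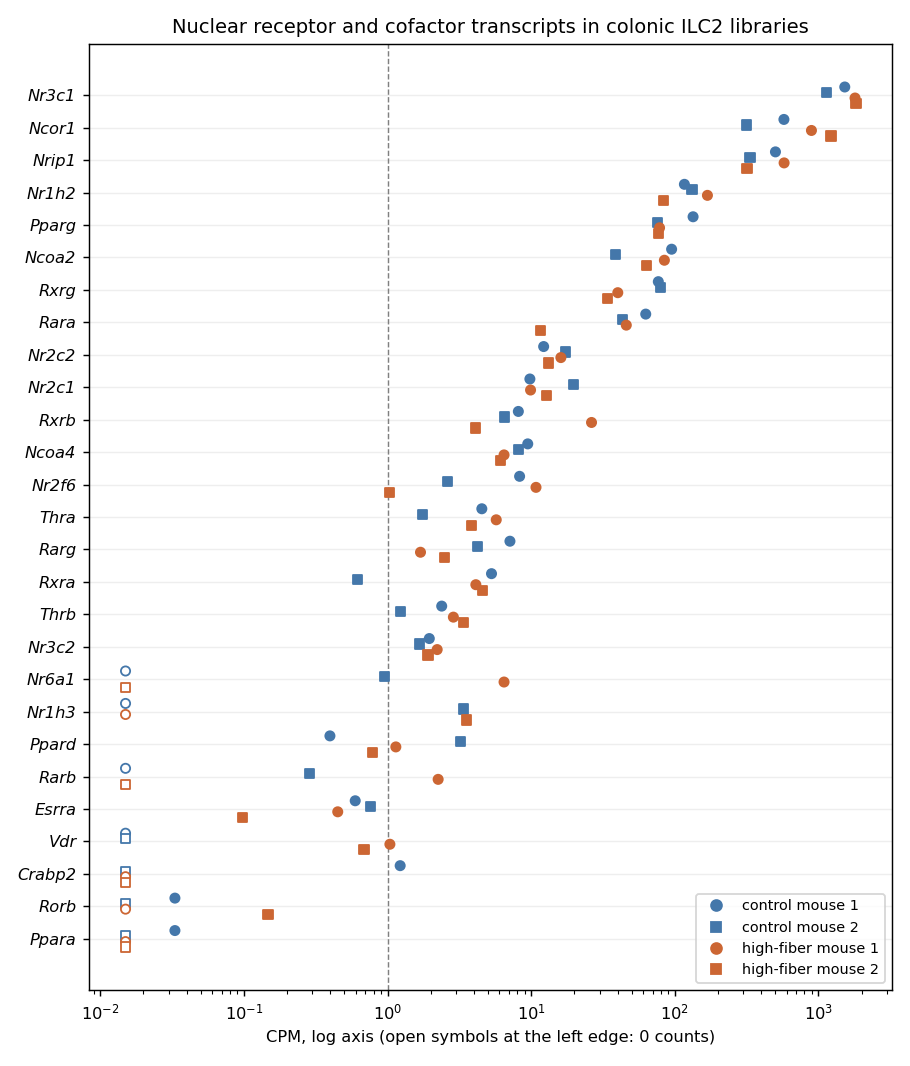
Level of the 27 members with any count, in CPM on a log axis, 1 point per mouse (blue, control diet; orange, high-fiber diet; circle, mouse 1; square, mouse 2). Open symbols mark 0 counts, the dashed line marks 1 CPM, and Nr3c1, Ncor1 and Nrip1 stand above the other members in every library.

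The receptor set was dominated by Nr3c1, the glucocorticoid receptor. It was at 1526 and 1134 CPM in the control mice and at 1799 and 1825 CPM in the high-fiber mice. Levels of different genes were compared per kilobase (kb) of exon. On that scale Nr3c1 had a mean of 240 CPM per kb (173 to 279 over the 4 libraries), above every other receptor of the set in each library. Nr1h2 (LXR-beta, a receptor for oxysterols) followed at 62.3 CPM per kb (41.7 to 84.0). Pparg, a fatty acid receptor, was at 38.4 CPM per kb (31.9 to 56.4) and Rxrg (RXR-gamma) at 25.0 CPM per kb (14.7 to 34.4). Nr1h2 was above Pparg in each of the 4 libraries, narrowly so in control mouse 1 (58.1 against 56.4 CPM per kb), whereas Pparg and Rxrg changed places in control mouse 2 (31.9 against 34.4 CPM per kb). Rara, the retinoic acid receptor alpha, came next at 9.56 CPM per kb (2.73 to 14.7), and every further receptor had a mean under 4 CPM per kb. The mineralocorticoid receptor gene Nr3c2, close kin of Nr3c1, was expressed at 0.314 CPM per kb (0.270 to 0.359). These ranks are drawn in the plot of length-scaled levels.

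**Figure D2:**
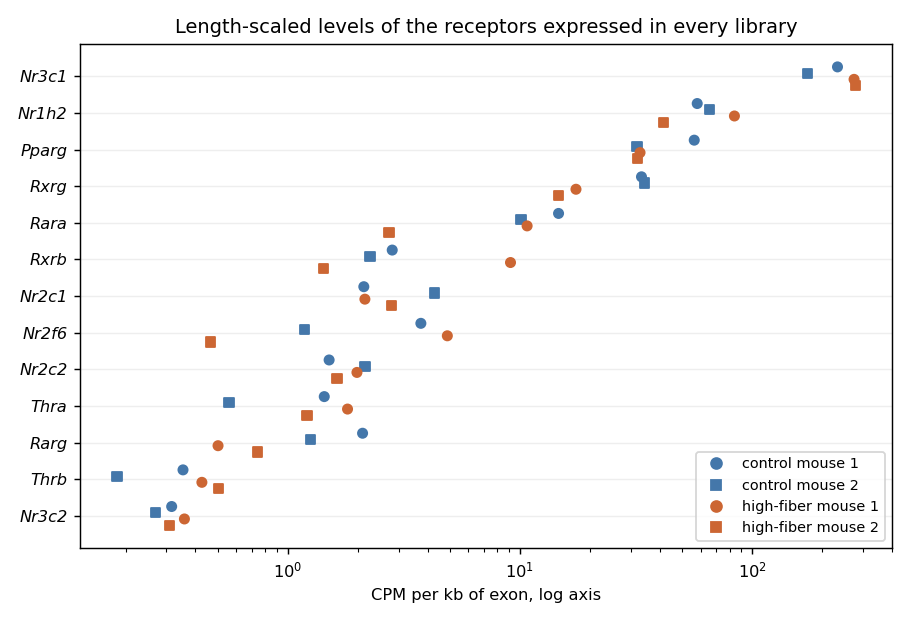
CPM per kb of exon (log axis) of the 13 receptors expressed in every library, 1 point per mouse, colours and symbols by diet and mouse, ordered by mean. Nr3c1 lies to the right of all other receptors (173 to 279 CPM per kb).

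Most receptor families were represented by 1 main gene. Rxrg made up 89.6% and 93.5% of the length-scaled RXR transcripts in the control mice, and 63.7% and 86.3% in the high-fiber mice. Pparg made up 97.0% to 99.8% of the PPAR transcripts and Nr1h2 96.2% to 100% of the LXR transcripts. Rara made up 78.7% to 90.2% of the retinoic acid receptor transcripts. Among thyroid hormone receptors Thra held 70.7% to 80.9%, at a low total of 0.742 to 2.24 CPM per kb. The orphan receptors Nr2c1 and Nr2c2, known as testicular receptors, were the pair without a single main gene, with 52.0% to 66.6% for Nr2c1. These shares are of length-scaled counts and carry no counting interval.

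The undetected members include receptors known from liver and reproductive tissue. The bile acid receptor Nr1h4 (FXR), the xenobiotic receptors Nr1i2 (PXR) and Nr1i3 (CAR), the atypical receptor Nr0b2 (SHP), the orphan receptor Nr2f2 (COUP-TFII), the estrogen receptor Esr1 and the binding protein gene Crabp1 had 0 counts in all 4 libraries. Nr1i3 shares 2160 of its 3270 exon bases with Tomm40l on the opposite strand, so its 0 counts may miss reads of that stretch. Ppara had 1 count in all, in control mouse 1, and Rorb had 1 count in control mouse 1 and 3 in high-fiber mouse 2. Crabp2, a carrier of retinoic acid, had 37 counts in control mouse 1 and 0 in the other mice. Rarb had 0 and 6 counts in the control mice and 65 and 0 in the high-fiber mice. Of its 3392 exon bases 1793 are shared with Top2b on the opposite strand, and whether the counting used strand is not given, so its reads cannot be assigned with certainty.

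The diet comparison asked which of these transcripts differ with the diet of the mouse. A total of 23 members entered the test, 19 receptors and the 4 coregulators. By edgeR's quasi-likelihood test, 0 of the 23 had an adjusted p (Benjamini-Hochberg) under 0.05, where 0.0338% of all 11841 tested genes did. At an unadjusted p under 0.05, 2 members were higher on the high-fiber diet, Ncor1 and Vdr, where 4.70% of all tested genes were. In the other direction 1 member, Rxrg, was lower, where 4.10% of all tested genes were. In both directions together 8.80% of all tested genes were at that level. Vdr, with 0 counts in both controls, passed the filter on low counts only through the group where it was high, so the members' share is not read against it. With no filter, or with at least 5 CPM in 2 libraries, 2 members, Rxrg and Ncor1, were at that level. DESeq2 called 1 of the 24 members to which it gave an adjusted p, Ncor1, against 1.91% of the 12434 genes with one, and limma-voom called 0. The groups did not overlap for 8 of 23 members (34.8%), against 38.2% of all tested genes. The median log2 fold change (high-fiber minus control) was 0.10 over the members and -0.016 over all tested genes. Of the members 15 were positive and 8 negative, where 48.8% of all tested genes were positive.

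**Figure D3:**
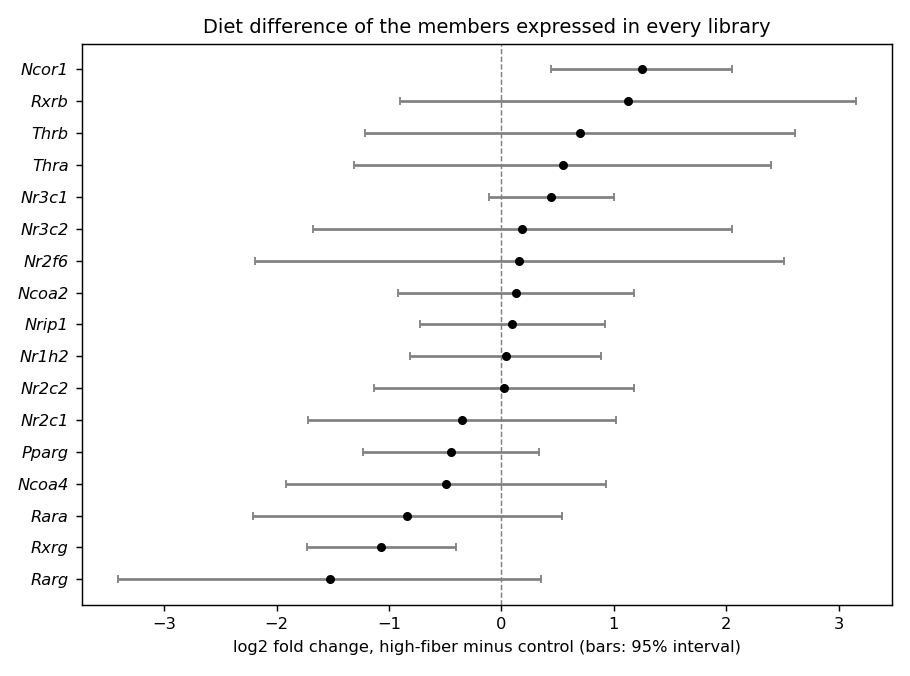
Log2 fold change (high-fiber minus control diet) with its 95% interval for the 17 members expressed in every library, from edgeR's quasi-likelihood fit over 2 mice per diet. The intervals of Ncor1 (0.44 to 2.05) and Rxrg (-1.73 to -0.41) lie to 1 side of 0, and those of the other 15 include 0.

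Among the partner receptors, Rxrg had the smallest p of the 23 members. Its counts were 2320 and 1662 in the control mice and 1158 and 690 in the high-fiber mice. Scaled to library size these are 76.8 and 79.2 CPM in controls against 40.1 and 33.9 CPM in fiber-fed mice. Both high-fiber mice thus lay below both control mice, and the mice of each diet were close to each other (1.03-fold and 1.18-fold apart). The means were 78.0 ± 1.68 and 37.0 ± 4.42 CPM (SD, n = 2 each). The log2 fold change was -1.07 ± 0.28 (SE), with an interval of -1.73 to -0.41, an unadjusted p of 0.00703 and an adjusted p of 0.447. DESeq2 gave an adjusted p of 0.0582, the smallest over the alternatives, which reached 0.998.

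Rxrg (NCBI gene 20183) lies on chromosome 1 from 167598362 to 167639623 in GRCm38 and is a plus-strand gene with 2 start sites in the RefSeq promoter table. The 250 bases before each start are shown because it is the expressed receptor with the smallest p, and capitals mark the hexamer AGGTCA, the half-site to which RXR heterodimers bind. The gene counts do not tell which start was used.
Rxrg, first start (chr1:167598112-167598361, GRCm38.p6, plus strand): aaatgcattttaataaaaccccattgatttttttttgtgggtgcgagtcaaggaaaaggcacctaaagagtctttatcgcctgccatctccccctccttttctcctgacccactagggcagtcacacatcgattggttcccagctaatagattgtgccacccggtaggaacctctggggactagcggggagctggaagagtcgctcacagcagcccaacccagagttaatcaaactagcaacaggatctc
Rxrg, internal start (chr1:167618015-167618264, GRCm38.p6, plus strand): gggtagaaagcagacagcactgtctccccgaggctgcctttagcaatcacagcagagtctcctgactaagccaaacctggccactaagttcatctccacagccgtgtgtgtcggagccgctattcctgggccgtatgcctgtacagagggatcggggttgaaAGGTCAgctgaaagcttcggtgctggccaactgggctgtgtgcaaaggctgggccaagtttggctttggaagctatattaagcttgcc
The window before the first start holds no AGGTCA on either strand, and the window before the internal start holds 1. AGGTCA occurs on either strand in 14.0% of the 32851 start sites of the table, and before 9 of 48 start sites (18.8%) of the 30 members that the table holds. A match is a description of letters only.

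The other RXR genes were at lower levels per kb than Rxrg in each library. Rxrb was at 8.15 and 6.53 CPM in the control mice and at 26.3 and 4.12 CPM in the high-fiber mice. High-fiber mouse 1 alone was high, and the groups overlapped (log2 fold change 1.13 ± 0.84, adjusted p = 0.789 by edgeR). Without that library the sign turned, to -0.83. Rxra, the widely expressed RXR, was at 5.30 and 0.619 CPM in controls and 4.12 and 4.61 CPM in fiber-fed mice. Summed per kb, the RXR genes stood at 37.3 and 36.8 CPM per kb in the control mice and at 27.4 and 17.1 CPM per kb in the high-fiber mice.

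Of the receptors that pair with RXR, Vdr, the vitamin D receptor, was seen in the high-fiber mice only. It had 0 and 0 counts in the control mice and 30 and 14 counts in the high-fiber mice, or 1.04 and 0.687 CPM. Set against 3 counts over the control group, the pooled high-fiber counts of Vdr were 15.2-fold higher, which leaves out the spread between mice. The log2 fold change was 7.49 by edgeR, with a wide interval of 2.48 to 12.5. The unadjusted p was 0.0102 and the adjusted p 0.447 by edgeR. Vdr entered the test only through its high-fiber counts, so a difference was built into its entry. Its unadjusted p was 0.0603 with DESeq2 and 0.0836 with limma-voom, and without 1 library it ran from 0.0606 to 0.166 in the 3 fits it entered. At about 1 CPM it lies far below the abundant members. The B and plasma cell sum was highest in the same 2 mice (343 and 1229 CPM), with mouse 2 the higher, whereas Vdr was higher in mouse 1. The myeloid sum was also highest in these mice (328 and 368 CPM, against 143 and 294 CPM in controls). The part of these cells was not tested. Of the epithelial markers 7 of 10 were at 0 in all libraries, and Epcam was at 25.1 and 27.3 CPM in controls and 25.8 and 36.9 CPM in fiber-fed mice. Krt18 (35 counts in high-fiber mouse 1) and Krt19 (8 counts in high-fiber mouse 2) had counts in fiber-fed mice only, and their part was not tested either.
Vdr (NCBI gene 22337) lies on chromosome 15 from 97854427 to 97908296 in GRCm38, and the 250 bases before its start are shown because no count was found on the control diet.
Vdr (chr15:97908297-97908546, GRCm38.p6, minus strand): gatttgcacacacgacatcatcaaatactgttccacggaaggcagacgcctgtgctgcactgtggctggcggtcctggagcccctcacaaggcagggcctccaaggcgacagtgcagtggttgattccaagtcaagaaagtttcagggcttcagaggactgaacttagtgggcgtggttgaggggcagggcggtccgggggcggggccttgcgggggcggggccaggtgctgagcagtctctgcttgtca
This window holds neither AGGTCA nor AGAACA, the half-site of the glucocorticoid response element, on either strand. AGAACA occurs in 16.1% of all start sites of the table and in 10.4% of those of the members.

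Mean levels of Rara and Rarg were lower in the high-fiber mice, and neither passed the test. Rara was at 62.8 and 43.3 CPM in the control mice and at 46.0 and 11.7 CPM in the high-fiber mice. Only high-fiber mouse 2 lay apart from the rest, and the groups overlapped (log2 fold change -0.84 ± 0.57, interval -2.21 to 0.54, adjusted p = 0.761 by edgeR). The fold depended on that library: it was -0.22 without high-fiber mouse 2 and -2.17 without high-fiber mouse 1, with an unadjusted p of 0.00633 in the latter fit. Rarg was at 7.12 and 4.24 CPM in controls and 1.70 and 2.50 CPM in fiber-fed mice, and its groups did not overlap (-1.53 ± 0.79, adjusted p = 0.667).

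For the lipid receptors a diet difference could not be told from the spread between mice, and the intervals were wide. Nr1h2 was at 117 and 132 CPM in the control mice and at 169 and 83.8 CPM in the high-fiber mice. The 2 high-fiber mice were the highest and the lowest of the 4, and the log2 fold change was 0.037 with an interval of -0.81 to 0.88. Nr1h3 (LXR-alpha), common in macrophages, had 0 counts in mouse 1 of each diet and 71 and 72 counts in mouse 2 of the control and high-fiber diet. The myeloid markers Lyz2, Cd68, C1qb and C1qc were also higher in mouse 2 of each diet. Lyz2 was at 22.3 and 75.3 CPM in controls and 72.3 and 105.5 CPM in fiber-fed mice. Of the other myeloid markers with counts, Apoe, C1qa, Csf1r and Flt3 were higher in mouse 2 of the controls only. Csf1r had 0 and 100 counts in controls and 80 and 0 in fiber-fed mice. Adgre1 was higher in mouse 2 of the high-fiber diet only. The part of myeloid cells was not tested. Pparg, which ILC2s are known to express, was at 134 and 76.0 CPM in controls and 78.4 and 76.6 CPM in fiber-fed mice. Only control mouse 1 was high (log2 fold change -0.45, interval -1.23 to 0.33), and without it the value was 0.030. Ppard had 12 and 68 counts in controls and 33 and 16 counts in fiber-fed mice.

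Thyroid hormone receptors were near the limit of expression. Thra was at 4.54 and 1.76 CPM in the control mice and at 5.72 and 3.83 CPM in the high-fiber mice. Of its 3158 exon bases 263 are shared with Nr1d1 on the opposite strand, so part of its reads may belong to that gene. Thrb was at 2.38 and 1.24 CPM in controls and 2.88 and 3.39 CPM in fiber-fed mice, with groups that did not overlap (0.70 ± 0.80, adjusted p = 0.876 by edgeR).

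Among steroid receptors, Nr3c1 was higher in both high-fiber mice than in either control mouse. Means with SD were 1330 ± 277 CPM in controls and 1812 ± 18.2 CPM in fiber-fed mice, 2 mice each. The log2 fold change was 0.45 ± 0.23 with an interval of -0.11 to 1.00, which includes 0. The unadjusted p was 0.0976, the adjusted p 0.668 by edgeR and 0.540 by DESeq2, against 0.440 to 0.998 over the alternatives. The estimate was 0.25 without control mouse 2 and 0.68 without control mouse 1. Nr3c2 was at 1.95 and 1.67 CPM in controls and 2.22 and 1.91 CPM in fiber-fed mice.

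For the orphan receptors Nr2c1, Nr2c2 and Nr2f6 the diets overlapped. Nr2c1 was at 9.80 and 19.8 CPM in the control mice and at 9.91 and 12.9 CPM in the high-fiber mice. Nr2c2 was at 12.2 and 17.4 CPM in controls and 16.1 and 13.2 CPM in fiber-fed mice, with 3533 of its 8113 exon bases shared with Mrps25 on the opposite strand. Nr2f6, a repressor of cytokine genes in T cells, was at 8.31 and 2.62 CPM in controls and 10.8 and 1.03 CPM in fiber-fed mice. In each diet mouse 1 was the high one, by 3.17-fold and 10.5-fold, and Nr2f6 shares 914 of its 2218 exon bases with Ocel1 on the opposite strand. Nr6a1 had 0 and 20 counts in controls and 187 and 0 in fiber-fed mice, and Esrra, a regulator of mitochondrial genes, had 18 and 16 counts against 13 and 2, with diets apart (-1.12 ± 0.96, adjusted p = 0.811 by edgeR).

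Of the coregulators, the corepressor gene Ncor1 had the largest difference. It was at 575 and 314 CPM in the control mice and at 894 and 1222 CPM in the high-fiber mice. Both high-fiber mice lay above both control mice, although control mice differed 1.83-fold and high-fiber mice 1.37-fold. The means were 445 ± 185 and 1058 ± 232 CPM (SD, n = 2 each). The log2 fold change was 1.25 ± 0.33 (SE) with an interval of 0.44 to 2.05, an unadjusted p of 0.00831 and an adjusted p of 0.447 by edgeR. DESeq2 called it higher (log2 fold change 1.27, adjusted p = 0.0166), while over all alternatives the adjusted p reached 0.941. Without control mouse 2 the estimate was 0.88, with an unadjusted p of 0.0543. Ncor1 (NCBI gene 20185) lies on chromosome 11 from 62315663 to 62457414 in GRCm38.

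The other 3 coregulators did not follow Ncor1 in size, though differences between genes were not tested. Nrip1, a ligand-dependent corepressor also called RIP140, was at 502 and 334 CPM in the control mice and at 577 and 318 CPM in the high-fiber mice (log2 fold change 0.098, interval -0.73 to 0.92). In each diet mouse 1 was higher. Ncoa2, a p160 coactivator, was at 95.1 and 38.6 CPM in controls and 84.7 and 63.2 CPM in fiber-fed mice, with the high-fiber mice between the control mice. Ncoa4, an androgen receptor coactivator that also serves as the cargo receptor for ferritin, was at 9.47 and 8.15 CPM in controls and 6.48 and 6.09 CPM in fiber-fed mice (-0.49 ± 0.59, adjusted p = 0.886 by edgeR). Its groups did not overlap. Per kb of exon the levels were 67.3 CPM per kb for Ncor1, 53.8 for Nrip1, 8.26 for Ncoa2 and 1.84 for Ncoa4, as means of CPM per kb over the 4 libraries.

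The wider pathway was read from 127 further genes in lists of receptors, coregulators, carriers, ligand enzymes and target genes. These lists were chosen with earlier results of these data known, so their shares beside all genes are descriptions only. Of these 77 were tested and 0 passed edgeR's adjusted p. With unadjusted p under 0.05, 5 were higher and 2 lower (9.09% against 8.80% of all genes). DESeq2, which called 1.91% of all genes, called 4, and limma-voom called 0. In the list of 19 other receptors 7 were tested, and 0 were higher at unadjusted p under 0.05. The 2 lower ones at that level (28.6% of the 7, where 4.10% of all tested genes were lower) were Nr4a1 and Nr4a2. These are immediate early receptors of the NR4A group. Nr4a2 was at 686 and 417 CPM in controls and 148 and 142 CPM in fiber-fed mice (-1.93 ± 0.29, adjusted p = 0.311 by edgeR), and DESeq2 called both lower. Nr4a1 was also the most abundant of that list at 1293 CPM per kb. Rora, which ILC2s need to develop, was at 1750 and 1090 CPM in controls and 1422 and 1449 CPM in fiber-fed mice (0.015, interval -0.64 to 0.67). Nr1d2, a heme-binding clock repressor, was at 214 and 179 CPM in controls and 264 and 278 CPM in fiber-fed mice (0.46 ± 0.22, adjusted p = 0.634).

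Of 24 other coregulators 22 were tested and 1 (4.55%, against 8.80% of all genes) had an unadjusted p under 0.05, so the list did not exceed the background. That gene was Ncoa3, a p160 coactivator like Ncoa2, at 31.7 and 28.9 CPM in controls and 83.2 and 46.9 CPM in fiber-fed mice (1.11 ± 0.37, adjusted p = 0.459 by edgeR). Next by p were Kdm1a, a histone demethylase (log2 fold change 0.94, adjusted p = 0.600), and Ncoa5 (-1.02). The helicase gene Ddx5 was the most abundant of the list at 450 CPM per kb. DESeq2 called 0 of these coregulators.

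Of 25 genes that make and break down receptor ligands, 16 had counts in some library, 6 were expressed and 9 were tested. Of the 9 tested, 1 (11.1%, against 8.80% of all tested genes), Dgat1, had an unadjusted p under 0.05. Dgat1, which esterifies retinol as well as diacylglycerol, was the most abundant at 382 CPM per kb, and stood at 621 and 501 CPM in controls and 959 and 808 CPM in fiber-fed mice (0.65 ± 0.22, adjusted p = 0.467 by edgeR). Hsd11b1, which turns inert into active glucocorticoid, was at 167 and 175 CPM in the control mice and 141 and 259 CPM in the high-fiber mice. Dhrs3, a retinal reductase and itself a retinoic acid target, was at 3.81 and 3.05 CPM against 10.2 and 7.12 CPM (1.34 ± 0.68, adjusted p = 0.658), and Rdh10, a retinol dehydrogenase, had a log2 fold change of -0.73. Aldh1a1 had 0 counts throughout, and Aldh1a2 had 1 count. Among 15 carriers and receptor chaperones 8 were tested. Fkbp5 was the 1 (12.5%, against 8.80% of all tested genes) at an unadjusted p under 0.05. The cochaperones Fkbp4 (log2 fold change 0.44) and Stip1 (0.24) followed, and the chaperone Hsp90ab1 was the most abundant at 1165 CPM per kb.

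Target genes were read beside their receptors. Of 12 listed glucocorticoid targets, all tested, 3 had an unadjusted p under 0.05 by edgeR, each with higher levels in fiber-fed mice. Of all tested genes 4.70% were higher at that level. Of the 12, 0 passed edgeR's adjusted p. The list was chosen with earlier results of these data known, so its shares beside all genes do not show an excess among targets. Fkbp5, a brake on the receptor, was at 40.7 and 29.8 CPM in controls and 80.0 and 83.2 CPM in fiber-fed mice (1.20 ± 0.29, adjusted p = 0.447 by edgeR). Il1r2, a decoy receptor for IL-1, was at 4.27 and 0.905 CPM against 40.7 and 12.2 CPM (3.27 ± 0.89, adjusted p = 0.447). Anxa1, the annexin of glucocorticoid action, was at 96.1 and 162 CPM against 218 and 239 CPM (0.83 ± 0.30, adjusted p = 0.492 by edgeR). The summed myeloid level had the same order of libraries (143 and 294 CPM in controls, 328 and 368 CPM in fiber-fed mice). Its largest markers, Apoe and Lyz2, did not keep that order singly. The part of myeloid cells in Anxa1 was not tested. DESeq2, which called 1.91% of all genes, called Fkbp5 (adjusted p = 0.0283) and Il1r2 (0.0172), while the alternatives reached 0.998 for each. The log2 fold change of Il1r2 was 2.12 without high-fiber mouse 1 and 4.90 without control mouse 1. Groups did not overlap for 9 of the 12, where 38.2% of all genes do not, and of those 9, 4 were higher and 5 lower in fiber-fed mice. The median log2 fold change of the list was 0.0039, against -0.016 over all genes. Tsc22d3 (GILZ), a standard marker of receptor activity, had a log2 fold change of 0.33, while Sgk1 had -0.49, and Nfkbia and Dusp1, which stimulation also induces, had -0.33 and -0.50. On the mean of the 4 libraries Nfkbia was the most abundant of the list at 3238 CPM per kb, ahead of Dusp1 at 3152 CPM per kb, but high-fiber mouse 1 alone set that order: Dusp1 was level with Nfkbia in control mouse 1 and above it in both mice numbered 2.

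**Figure D4:**
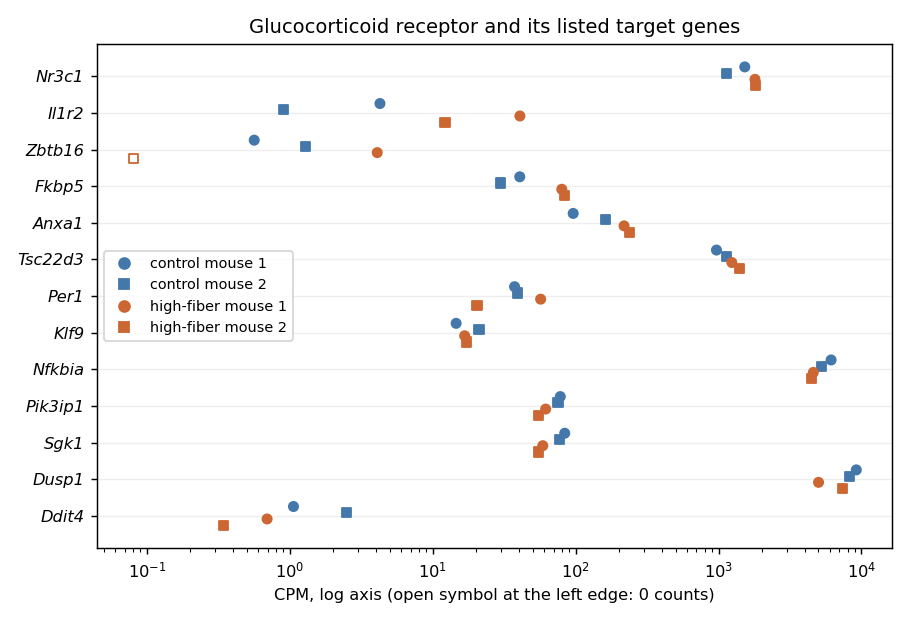
CPM (log axis) of Nr3c1 and its 12 listed target genes, 1 point per mouse, with colours and symbols by diet and mouse and targets ordered by log2 fold change. Fkbp5, Il1r2, Anxa1 and Tsc22d3 lie higher in both high-fiber mice, and Sgk1, Nfkbia, Pik3ip1, Dusp1 and Ddit4 lie lower in both.

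The target lists of the other receptors held 6, 6 and 9 tested genes, so few that a count of 0 at an unadjusted p under 0.05 is near the background of 8.80%. Of 12 retinoid and vitamin D targets 6 were tested and 0 were at that level. Ccr9, a gut homing receptor induced by retinoic acid in T cells, was at 14.8 and 14.5 CPM in controls and 4.95 and 7.95 CPM in fiber-fed mice (-1.23 ± 0.57, adjusted p = 0.625 by edgeR). The summed level of the T cell markers was lower in the same mice, with Cd3e and Themis lower in both and Cd3d and Trac overlapping. The part of T cells was not tested. Tgm2, a transglutaminase, had a log2 fold change of 0.73, which was 0.021 without high-fiber mouse 1, and the integrin gene Itga4 was the most abundant at 20.5 CPM per kb. Cyp24a1, the standard vitamin D target, had 0 counts in all libraries. Of 14 LXR and FXR targets 6 were tested and 0 were at an unadjusted p under 0.05 by edgeR. Of the 6, 5 were negative, where 48.8% of all tested genes were positive. Srebf1, the master factor of lipid synthesis, had means of 22.8 ± 2.72 CPM in controls and 11.9 ± 1.21 CPM in fiber-fed mice (SD, 2 mice each; log2 fold change -0.94 ± 0.44, adjusted p = 0.633), with log2 fold changes of -1.59 for Scd2 and -0.85 for Abcg1. Leaving out 1 library moved Scd2 from -0.80 (without high-fiber mouse 2) to -6.53 (without high-fiber mouse 1), and Abcg1 from -0.17 (without high-fiber mouse 1) to -1.73 (without high-fiber mouse 2). Smpdl3a was the most abundant of that list at 148 CPM per kb. Of 14 PPAR and ERR targets 9 were tested and 0 were at that level, with Cpt1a at 0.67 and Cd36 at 1.40 on the log2 scale and Ucp2 as the most abundant on the mean, at 125 CPM per kb. Cd36 ran from 0.34 without control mouse 1 to 3.92 without control mouse 2. It was at 0.795 and 9.63 CPM in controls and 8.94 and 15.9 CPM in fiber-fed mice. The summed myeloid level was also lowest in control mouse 1 (143 CPM), and the part of myeloid cells was not tested. Pdk4, a typical PPAR-alpha target, had 0 counts throughout.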

How the data were processed

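RNA of ILC2s sorted from the colon of 4 mice was sequenced, 2 mice per diet. Per the labels' protocols, libraries were made with a SMARTer ultra-low-input kit. Per the submitters' processing notes, the tools included CASAVA 1.8.2 and STAR 2.3.0 and the build was mm10. How reads were counted, and whether by strand, is not given in the sources used here. The authors deposited read counts per gene, whole numbers with a different total in each library and thus taken as not normalized. Symbols came from RefSeq GRCm38.p6 (the chromosomes of mm10), and 1904 identifiers without one (0.212% to 0.248% of counts) stayed in the test under their number.

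Counts were tested in R 4.3.3 with edgeR 4.0.16: filterByExpr, TMM scaling, an intercept and diet, glmQLFit with legacy=FALSE, glmQLFTest, and Benjamini-Hochberg adjustment over all 11841 tested genes at 0.05. The release's default is legacy=TRUE, given as an alternative. Standard errors and 95% intervals come from the F statistic. CPM use TMM-scaled library sizes. CPM per kb divide by the union of exons in the GENCODE M21 basic set, which may overstate the length used. Floors of 3 counts cover counting error only. Promoter sequences are RefSeq's. Motifs were searched on both strands in the 250 bases before each start.

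Values per mouse are given for members with a mean of at least 5 CPM or an unadjusted p under 0.05. Up to 3 genes per other list are named by p, at a mean of 5 CPM, with the most abundant per kb; a gene that met this rule is not reported here. Low members and any further genes named were picked with their values in view. The members and lists were chosen with earlier results of these data known. Alternatives were RLE and no scaling factors, no filter, 5 CPM in at least 2 libraries, legacy=TRUE, DESeq2 1.42.0, limma-voom (limma 3.58.1), a replicate block and each library left out in turn.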

Additional observations from a re-analysis of the deposited data

How the results depend on the processing

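The counts of members at an adjusted p under 0.05 (0) and of the further pathway genes (0) held under every alternative run except DESeq2, which called 1 member, Ncor1, and 4 pathway genes. Members at an unadjusted p under 0.05 numbered 3, and 2 to 3 in the fits on all libraries. Without 1 library they ran from 1 (without control mouse 2) to 4 (without high-fiber mouse 2). The 1 was Nr6a1, with 187 counts in high-fiber mouse 1, and there the unadjusted p was 0.0546 for Rxrg, 0.0543 for Ncor1 and 0.101 for Vdr. The count over all genes, 4, became 0 without a filter, with the legacy fit and with limma-voom, 9 with the 5 CPM filter and 238 with DESeq2, and ran from 0 to 1 without 1 library. With a replicate block it was 0 and members at an unadjusted p under 0.05 stayed 3. The shared numbers are not known to pair mice: the differences of mouse 1 from mouse 2 correlated at 0.0408 over genes between the diets. The cause of these changes was not tested.

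Of 14 members fitted in this way, Rara, Rxrg, Nr3c1, Ncor1 and Ncoa4 kept their direction in each alternative they entered. The direction of Vdr was fixed by its 0 counts in both controls. Signs turned on all libraries for Nr1h2 (-0.0062 without scaling factors, -0.017 with limma-voom, -0.036 with the block), Nr2c2 (-0.020, -0.016 and -0.0012 without scaling factors, with the legacy fit and with DESeq2) and Nr2f6 (-0.31 with limma-voom). Without 1 library the log2 fold changes ran from -0.54 to 0.44 for Nr1h2 and -0.79 to 0.030 for Pparg. For Nr2c1 they ran from -0.81 to 0.20, for Nr2c2 from -0.24 to 0.27 and for Nr2f6 from -2.48 to 1.30. The ranges were -0.83 to 1.82 for Rxrb, -0.36 to 0.94 for Ncoa2 and -0.37 to 0.46 for Nrip1. Of 22 pathway genes 21 kept their direction, and Ncoa5, which did not, ran from -1.61 to 0.18 without 1 library. With 2 mice per diet and a common biological coefficient of variation of 0.607, intervals of most members span more than a doubling.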

Other observations

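Several low genes of the retinoid, vitamin D and orphan receptor system had their counts in 1 library, a pattern chosen after the values were seen and not tested. It was not particular to this system, and its share over all low genes was not counted. Col3a1 had 45 counts in control mouse 1 only, Krt18 had 35 in high-fiber mouse 1 only and Flt3 had 33 in control mouse 2 only. In control mouse 1 alone lay the 37 counts of Crabp2 and the 27 counts of the orphan receptor Esrrb. The same held for the 42 counts of Cyp26b1, which clears retinoic acid, and the 65 counts of Cyp27b1, which makes active vitamin D. In high-fiber mouse 1 alone lay the 35 counts of Aldh1a3, which makes retinoic acid, and the 56 counts of Fgf15, an FXR target of the gut. That library also held most counts of Rarb (65) and of Nr6a1 (187). Nr1h3 (71 and 72 counts) and the retinol carrier Rbp4 (16 and 24 counts) had counts in mouse 2 of each diet and 0 in mouse 1 of each diet.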
